A study of Arabidopsis thaliana with 12 samples.

Results

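Assay for transposase-accessible chromatin with sequencing (ATAC-seq) had been used to compare mature seeds of wild-type (WT) *Arabidopsis thaliana*, accession Columbia (Col), with mature seeds of *h3.3ko*, which lack the histone variant H3.3. In this mutant *HTR4* and *HTR5* had been disrupted by CRISPR-Cas9 and *HTR8* by a T-DNA insertion. The *h3.3ko* seeds segregated from plants of the *h3.3ko* background that were heterozygous for a complementing *pHTR5::HTR5* transgene, and they were picked by the missing mCherry seed marker, so their mother plants carried the transgene. Seeds of both genotypes were stored for 3 months after harvest, nuclei were sorted, and 2 libraries were made per genotype. The series has 12 libraries, and the other stages were not analysed here. What follows concerns the accessibility increased regions inside genes whose midpoint lay more than 500 and up to 1000 bp from a transcription end site (TES), the annotated 3′ border of a gene.

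A region was taken when its midpoint fell inside a protein-coding gene, more than 500 bp from every protein-coding transcription start site (TSS) and TES, and no more than 1000 bp from the nearest TES. This span of 500 bp is called the window, and in all ranges of distance or gene length below the lower bound is excluded and the upper bound included. This gave 980 regions, which were 28.5% (95% Wilson interval 27.0 to 30.1) of the 3436 increased regions and belonged to 6714 changed regions in both lists. Of the other increased regions, 1389 had their midpoint inside a gene and up to 500 bp from a TES, 359 were inside a gene and over 1000 bp from every TES, all of these more than 500 bp from a TSS, and 708 lay elsewhere. Each region has a position and 1 deposited log2 fold change (*h3.3ko* relative to Col), with no value per library. The lists name no unit for this value, and the log base is inferred from its range and the 2-fold limit of the lists. The direction and size of the change therefore chose the regions, they are given as a description, and no test between groups of regions was made. Intervals cover counting error only, and the sequencing depth is unknown from these lists. The genotype and the tissue could not be checked in them, and in whole seeds a different mix of cell types and a change within cells cannot be told apart.

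DNA in chromatin is wrapped around histones, and the transposase inserts where it is least covered. H3.3 is placed into chromatin outside of DNA replication, and in plants it is known to accumulate over transcribed genes, in vegetative tissues most of all towards their 3′ ends. In mature seeds the study found it enriched at both ends of genes. The sequence just inside a gene's end usually holds the last coding exons, the last introns and the stop codon, which are not regions where promoters are normally sought.

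The central 30 bases of the 8 regions with the highest log2 fold change and of the 4 with the lowest are printed first, because they show what kind of sequence lay under the middle of these regions. Each is read 5′ to 3′ on the strand of the gene from the TAIR10.1 assembly, with coding bases in capitals and intron bases in lower case. The 8 highest come first.
*PP5.2*, chr2:17812671-17812700, minus strand: TTCTCTGCGCCAAATTACTGTGATCAGgta
*SUA*, chr3:20079788-20079817, plus strand: GTAGTTTCGATGTGATTACAGAAGAGAGAG
*LACS6*, chr3:1786900-1786929, minus strand: ATTTACTCTGGAAAATGGCTTGTTGACTCC
*AT3G18600*, chr3:6400310-6400339, minus strand: TTCAGTTTATTCGCTACCTGAAGgtaagaa
*DRM2*, chr5:4715686-4715715, minus strand: AGATTTCAAAAGTCAACAGAAATATTTTGA
*LUP2*, chr1:29700791-29700820, plus strand: tgatgtcatggacctgaactcacttttctt
*SPA1*, chr2:19022671-19022700, minus strand: CCCATTTCTGGAAACGAATACTTTGATGAC
*SPL12*, chr3:22166222-22166251, minus strand: ACCGGATTCACACCAGAAGACTATGCACGT
The 4 lowest follow.
*TAA1*, chr1:26606960-26606989, plus strand: CCCTGAAGCATTTTGCAACTACTTTGGAAA
*AT1G05510*, chr1:1630293-1630322, plus strand: GCCAAGACTTATGGGAAAGTTTACCATTTC
*EXPB1*, chr2:8941844-8941873, plus strand: tacatttaaatggttttttcttacattggg
*LBD40*, chr1:25054332-25054361, plus strand: TAACAACAAGCTTTGCGACATAAGACACGT
In *PP5.2* and *AT3G18600* the middle of the region ran from coding sequence across the start of an intron, whose first bases are gta in both. *LUP2* and *EXPB1* had an intron at the middle, and the remaining 8 had coding sequence alone. Intron and coding centres occurred among the highest and among the lowest regions.

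The regions were most frequent at the side of the window that faces the TES. Counted per megabase (Mb) of gene-body sequence at the same distance from a TES and over 500 bp from a TSS, increased regions were densest at 400 to 500 bp, with 164 per Mb (148 to 182), just outside the window. Inside it the density was 133 per Mb (119 to 149) at 500 to 600 bp, 83.7 (72.8 to 96.2) at 700 to 800 bp and 41.1 (33.4 to 50.5) at 900 to 1000 bp. At 1000 to 1100 bp it was 41.8 (33.9 to 51.5), so nothing in the density sets the outer border of the window apart. Over the whole window there were 85.2 regions per Mb (80.0 to 90.7) in 11507 kb of sequence that meets the rule. The 5 chromosomes ranged from 77.8 per Mb on chromosome 1 to 92.3 per Mb on chromosome 3.

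**Figure D1:**
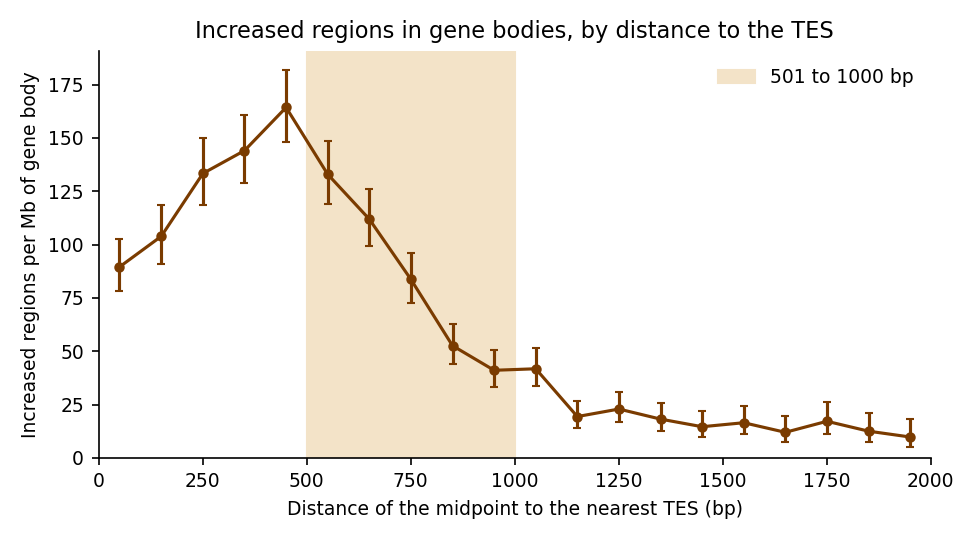
Density of increased regions inside genes in bins of 100 bp, by the distance of the midpoint to the nearest TES, as regions per Mb of gene-body sequence in the bin, with 95% Wilson intervals. The shaded window holds the 980 regions described here, and the density falls through it from 133 to 41.1 per Mb.

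At the near border, *MAP3KA*, a mitogen-activated protein kinase kinase kinase gene, had its region at the first position of the window with a log2 fold change of 3.69, and *PSKR1*, which encodes a phytosulfokine peptide receptor, and *ELF8* had theirs at 502 bp with 3.28 and 2.89. Just outside lay the regions of *AT1G13880* at 499 bp, with 3.04, and of *SPD1* and *AT3G24080* at 500 bp, with 4.51 and 2.92. At the far border were *AT5G61140*, a spliceosomal helicase gene, at 998 bp with 2.58, *AT4G03090* at 999 bp with 3.40 and *AT5G16960* at 1000 bp with 1.91. The *AT5G16960* region was nearest to the TES of a neighbouring gene. Beyond the border lay *SDG2*, a histone H3 lysine methyltransferase gene, at 1002 bp with 3.79, *MAK10* at 1003 bp with 3.32 and *AT4G11160* at 1005 bp with 3.03. Regions on both sides of each border had overlapping values, and the borders are conventions.

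Relative to their own gene, the midpoints lay far to the 3′ side, which the rule and the length of the genes largely set in advance. The TES of the gene itself was the nearest TES for 843 of the 980 regions (86.0%), and in the other 137 a neighbour's TES was nearer. Of these, 27 had their midpoint over 1000 bp from the end of their own gene. The median midpoint lay 82.1% of the way from the TSS to the TES (interquartile range 77.6 to 86.3) and 3115 bp from the TSS. It was 351.5 bp upstream of the last base of the coding sequence of the first annotated transcript. In all, 643 regions (65.6%, 62.6 to 68.5) held that stop codon, but only 146 (14.9%) reached across the TES, and 835 (85.2%) lay wholly within their gene. An intron was touched by 815 (83.2%) and the last intron by 768 (78.4%). Of the increased regions up to 500 bp from a TES, 82.9% held the stop codon and 62.1% touched an intron. Of those over 1000 bp from a TES, 24.5% held the stop codon and 80.5% touched an intron. What regions of the same width placed anywhere in the window would give was not counted, so these shares describe the placing and width of the regions. The genes lay on the plus strand for 491 regions and on the minus strand for the rest, and 6 midpoints lay in 2 overlapping genes, where the gene with the nearer TES was used.

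The base at the midpoint was coding in 646 regions (65.9%, 62.9 to 68.8), in an intron in 294 (30.0%, 27.2 to 32.9) and in an untranslated region (UTR) in 40 (4.08%, 3.01 to 5.51). A base counted as coding when any transcript translates it, otherwise as intron when any transcript removes it, and otherwise as UTR. Over all gene-body bases that meet the distance rule, 62.4% were coding, 35.0% intron and 2.62% UTR. The interval of the coding share lay just above the share of the available sequence, and that of the intron share below it. With only the regions changed more than 4-fold, the interval of the coding share (62.3 to 68.5) included it. In genes of 3000 to 5000 bp alone the coding share was 66.9% (62.8 to 70.7) of 537 regions against 60.7% of the bases. By chromosome it ranged from 61.4% on chromosome 2, where 61.9% of the bases were coding, to 70.9% on chromosome 1, where 62.6% were. On chromosome 3 the shares were 63.0 and 63.1%. Regions nearer to a TES were different in make-up, with 43.9% coding, 12% intron and 44.1% UTR midpoints, while those over 1000 bp from a TES had 69.6% coding, 29.0% intron and 1.39% UTR midpoints. The bases available at those distances were not classed. Counted over every base of the 980 regions and not only the midpoint, 56.4% was coding, 26.3% intron, 15.6% UTR and 1.71% outside protein-coding genes.

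**Figure D2:**
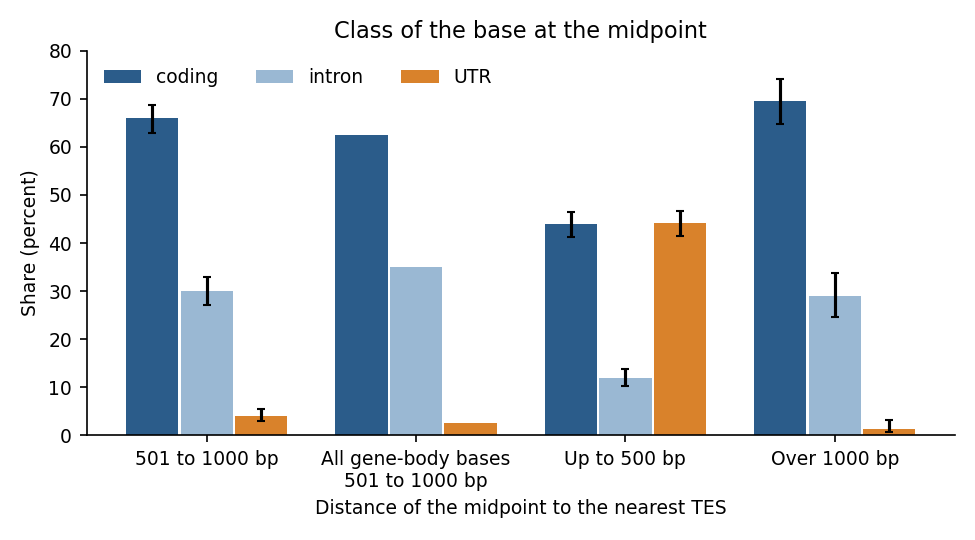
Share of midpoints in coding sequence, introns and UTRs for increased gene-body regions at 3 distances from the nearest TES, with 95% Wilson intervals, beside the share of all gene-body bases 500 to 1000 bp from a TES, which has no interval. Coding midpoints make up 65.9% of the regions in the window and 62.4% of the bases.

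Their median width was 919.5 bp (order-statistic interval 884 to 957), with an interquartile range of 638 to 1234.5 bp and extremes of 94 and 3863 bp. Increased regions up to 500 bp from a TES had a median of 737 bp, those over 1000 bp from a TES 711 bp and all increased regions 750 bp. With distance measured from the edge of a region, the median in the window was 586.5 bp (506 to 643). The groups on its sides were not placed anew by edge, so the larger width in the window holds for midpoints only. Width grew with distance from 763 bp at 500 to 600 bp to 1209 bp at 800 to 900 bp, and was 1107 bp at 900 to 1000 bp. The widest region, 3863 bp in *ML4*, a gene for a MEI2-like RNA-binding protein, had a log2 fold change of 1.57. The next widest were 2891 bp in *AT1G05510*, with 1.03, and 2698 bp in *PKT3*, with 2.16. The narrowest was 94 bp in *AT4G14350*, with 3.77. The next narrowest were both in *PHYA*, the gene of the far-red light receptor phytochrome A. They were 121 bp wide, 602 bp from the TES and in an intron, with 3.46, and 130 bp wide, 904 bp from the TES and coding, with 3.89.

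The deposited log2 fold change had a median of 3.19 (3.13 to 3.24), an interquartile range of 2.63 to 3.74 and a range of 1.02 to 7.06. More than 4-fold change was listed for 894 of the 980 regions (91.2%, 89.3 to 92.8) and for 87.0% of all increased regions. The median was 2.93 up to 500 bp from a TES and 3.45 (3.28 to 3.59) over 1000 bp from it, so the window lay between its neighbours on both sides. Within the window it was 3.11 at 500 to 600 bp and 3.42 (3.20 to 3.71) at 900 to 1000 bp. By midpoint class it was 3.15 for coding, 3.29 for intron and 2.91 for UTR, where the interval for coding (3.08 to 3.22) overlapped both others. By width, the 245 narrowest regions had 3.09 and the 245 widest 3.44 (3.3 to 3.59). These medians were all taken above the 2-fold limit of the list.

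**Figure D3:**
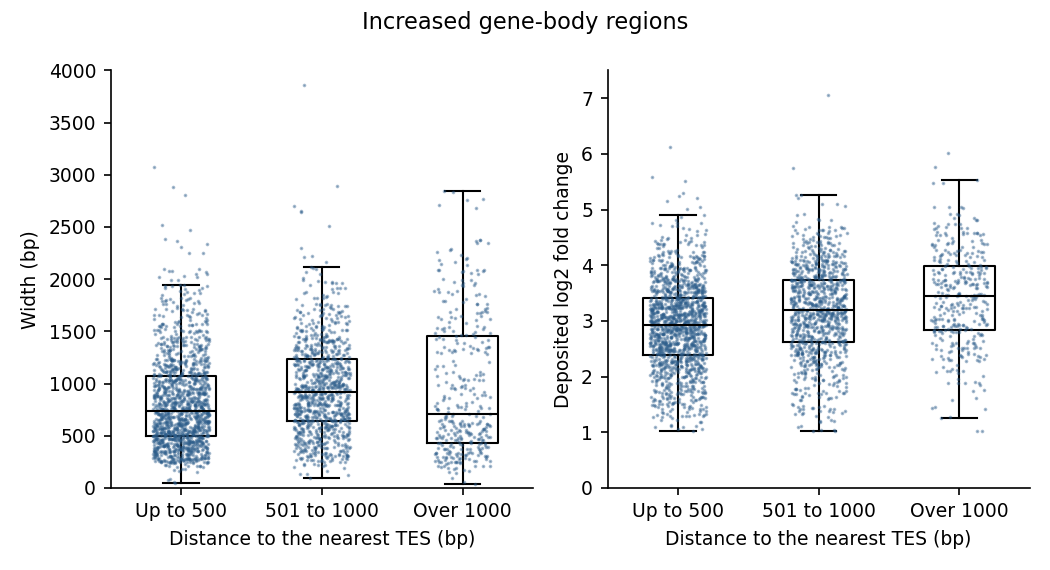
Width in bp and deposited log2 fold change of each increased gene-body region, as points spread sideways, with boxes for the median and quartiles and whiskers to the last value within 1.5 interquartile ranges, at 3 distances from the nearest TES. The median width is 919.5 bp in the window against 737 and 711 bp on its sides, and the median log2 fold change rises from 2.93 to 3.19 and 3.45.

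The highest value was that of *PP5.2* (AT2G42810), which encodes a protein phosphatase that acts on phytochromes. Its region, chr2:17812528-17812842, lay 750 bp from the TES with a log2 fold change of 7.06. *SUA*, a splicing regulator gene found as a suppressor of *abi3-5*, followed with 5.75 at chr3:20079596-20080008. *LACS6*, for a peroxisomal long-chain acyl-CoA synthetase that activates fatty acids for breakdown, had 5.26 at chr3:1786214-1787615, a region that reached across the TES. *AT3G18600* had 5.26 as well, and *DRM2*, the DNA methyltransferase of RNA-directed DNA methylation, had 5.21 at chr5:4714948-4716452. *LUP2*, for a lupeol synthase of triterpene metabolism, and *SPA1*, whose product represses light responses together with COP1, both had 5.10. *SPL12*, a squamosa promoter-binding factor gene, had 5.06, *AT1G15280*, for a CASC3/Barentsz protein, had 4.93, and *LUH*, for a LEUNIG-like corepressor, had 4.91. *AT1G15280* was the only one of these 10 with a UTR midpoint, 22 bp past its stop codon in the first annotated transcript. *PP5.2*, *SUA*, *LUP2* and *SPA1* had regions of 315, 413, 246 and 316 bp, well under the median width, whereas the other 6 ranged from 706 to 1505 bp. None of the 10 genes had a further increased region at its end.

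The lowest values lay close to the 2-fold limit. They were 1.09 in *AT4G12290*, a copper amine oxidase gene, 1.04 in *TAA1*, for a tryptophan aminotransferase of auxin synthesis, 1.03 in *AT1G05510*, 1.02 in *EXPB1*, for a wall-loosening expansin, and 1.02 in *LBD40*, a LOB domain gene. These 5 genes were 1192 to 3253 bp long, all shorter than the median gene with a region. Their regions in *AT4G12290*, *AT1G05510* and *EXPB1* extended over the TES.

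The 980 regions lay in 978 genes, since *PHYA* and *MYB97*, a pollen MYB transcription factor gene, had 2 each. The *MYB97* regions, with 3.37 and 3.36, were 303 and 251 bp wide and lay 1283 and 786 bp from its own TES. Of all 22755 protein-coding genes with at least 1 base that meets the rule, 4.30% held such a region. This share is the background for every share of genes with a region below.

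Genes with a region were long and rich in introns. Their median length, counted once per region, was 3862.5 bp (3774 to 3971), against 2351 bp for the 22755 genes and 2506 bp when these are weighted by the bases they offer. Genes of regions up to 500 bp from a TES had a median of 3043 bp and genes of regions over 1000 bp from a TES 4908 bp. The share of genes with a region was 0.395% for genes of 1000 to 2000 bp, 2.16% for 2000 to 3000 bp and 8.84% (7.98 to 9.79) for 3000 to 4000 bp. It was 12.7% for 4000 to 5000 bp, 14.7% for 5000 to 7000 bp and 16.3% (13.3 to 19.8) for longer genes. Among genes that offer all 500 bases of the window the shares were 0.453, 2.29, 8.96, 12.7, 14.7 and 17.5% in the same order.

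**Figure D4:**
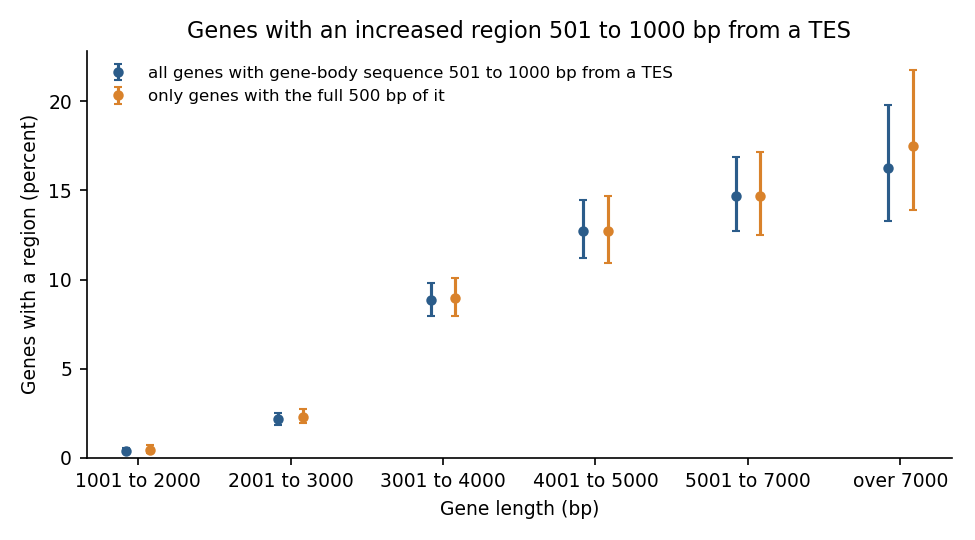
Percent of protein-coding genes with an increased region 500 to 1000 bp from a TES, by gene length in bp, with 95% Wilson intervals, for all genes with sequence in the window and for those with the full 500 bp. Both series rise together, from under 1% in genes of 1000 to 2000 bp to 16.3 and 17.5% in genes over 7000 bp.

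The median gene with a region had 8 introns against 4 for all genes offering sequence, and 27 regions (2.76%) were in genes without any intron, against 12.9% of the 22755 genes. The share of genes with a region was 0.918% without introns, 2.86% with 3 to 5, 6.03% with 6 to 10 and 12.5% with 11 to 20. In the 3 length classes from 2000 to 5000 bp that were split by introns the shares had overlapping intervals. Among genes of 3000 to 4000 bp the share was 8.06% (6.02 to 10.7) with 0 to 2 introns, 8.92% with 3 to 10 and 9.10% with more. Among genes of 4000 to 5000 bp it was 13.8, 12.8 and 12.5%.

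The start of the same genes often appeared in the list of decreased regions. A decreased region with its midpoint within 500 bp of the TSS was listed for 227 of the 980 regions (23.2%, 20.6 to 25.9), against 11.6% of the 22755 genes. Genes of increased regions up to 500 bp from a TES had 22.5% and those of regions over 1000 bp from a TES 26.5%, with overlapping intervals at all 3 distances. By gene length the contrast differed. Among genes of 3000 to 4000 bp, 83 of 332 with a region (25%, 20.6 to 29.9) and 410 of 3423 without one (12%, 10.9 to 13.1) had a decreased TSS. For 2000 to 3000 bp the shares were 28.7 and 12.4%, for 5000 to 7000 bp 23.8 and 13.7%. The intervals overlapped for 4000 to 5000 bp, with 19.0% (14.2 to 24.9) against 12.6% (11 to 14.5), and for genes over 7000 bp, with 21.2% (13.7 to 31.4) against 12.1% (9.33 to 15.6). Among the few genes of 1000 to 2000 bp the share was lower, with 1 of 33 (3.03%, 0.537 to 15.3) against 9.03%, a value inside that interval. Both lists come from the same 4 libraries and the same comparison, so the joint listing is a description.

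A further increased region within 500 bp of the TES of the same gene was listed for 59 regions (6.02%, 4.70 to 7.69), against 9.89% of all 22755 genes. It was listed for 18.1% (14.5 to 22.4) of the regions over 1000 bp from a TES. Among genes of 3000 to 4000 bp it was 7.53% of those with a region and 16.4% of those without, but among genes of 1000 to 2000 bp it was 15.2% (6.65 to 30.9) against 4.45%. With distance measured from the edge of a region in place of its midpoint, the share was 19.6% (14.5 to 25.9), above that of all genes, so its direction depends on how the regions are placed. Listed regions do not overlap each other, so a broad region near the TES leaves less room for a second one, and its part in these shares was not tested. Where both were listed, a median of 247 bp (220 to 370) lay between them, with extremes of 152 and 1223 bp. The median log2 fold change of the 59 was 3.36 and that of their partners at the gene end 3.02. The next gene lying wholly past the TES ran towards it on the other strand for 376 regions (38.4%). This was the same share as among the 22755 genes (38.4%), and it was 45.6% for the regions up to 500 bp from a TES. Neighbours that overlap the end of the gene were passed over in all 3 shares, so convergent genes of that kind were not counted.

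In sequence the regions were richer in G and C than the space they could lie in. Pooled over their bases they had 40.9% GC, against 39.8% for all gene-body bases that meet the rule and 36.2% for decreased regions. Increased gene-body regions up to 500 bp from a TES had 38.8%, and those over 1000 bp from a TES had 41.6%, so the window lay between them. The difference from gene-body sequence was present within classes. Coding bases of the window had 46.3% GC inside the regions and 44.1% outside both lists, and intron bases 33.8 and 32.2%. In genes of 3000 to 5000 bp these were 45.9 and 43.9%, and 34.0 and 32.3%. CG dinucleotides, the main sites of gene-body DNA methylation, occurred at 0.626 of the number that C and G content would give, against 0.655 for all bases meeting the rule and 1.02 in decreased regions. This ratio was 0.646 in increased gene-body regions up to 500 bp from a TES and 0.612 in those over 1000 bp from it. In coding bases of genes of 3000 to 5000 bp the ratio was 0.643 inside the regions and 0.641 outside both lists, and in introns of these genes 0.454 and 0.482. Over genes of every length it was 0.658 and 0.689 in coding bases.

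Exact matches to 7 short motifs, on either strand and in the central 300 bp, were compared with windows of the same length from all gene-body sequence that meets the rule. None of the 7 contains another. The G-box core CACGTG was in 4.08% (3.01 to 5.51) of the regions, in 2.81% of windows of the eligible sequence and in 24.3% of decreased regions. TGGGCC, the TCP-type motif, was in 3.57, 2.93 and 26.4% of them. For these 2 motifs the regions lay far closer to gene-body sequence than to decreased regions. AATAAA, the polyadenylation-like hexamer, was in 22.2% of the regions and 26.5% of the eligible windows, TATAAA in 19.6 and 22.7%, GAAGAA in 40.5 and 43.9%, and GAGAGA in 29.5 and 26.1%. AAACCCTA, the telobox-like motif, was in 1.02% (0.555 to 1.87) against 2.39%. CACGTG is its own reverse complement, so both strands give the same matches, and a match in any of these motifs is a description and not a site.

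Grouped by the product names in the annotation, 299 of the 978 genes fell into at least 1 of 14 lists. How many of all genes with sequence in the window fell into any list was not counted. The 299 therefore describe only how far the lists reach, and not a feature of genes with a region. For each list the share of genes with a region is set beside the share that its gene lengths alone would give at the rates of the length classes above. This is a description and not a test. The share from length has no interval, and no allowance was made for the number of lists. Some product patterns were corrected after their matches were seen, among them those for kinases and for words containing actin. RNA helicase, splicing and RNA-binding genes had the highest share, with 45 of 391 genes (11.5%, 8.71 to 15.1) against 5.51% from length. *FLK*, a flowering regulator with KH domains, had 4.67, *AtRZ-1c* 4.57 and the splicing factor gene *SCL30A* 4.41. Protein phosphatase genes had 11 of 118 (9.32%, 5.29 to 15.9) against 4.63%, led after *PP5.2* by *AT5G53140*, with 4.41, and *PP2CA*, a repressor of abscisic acid signalling, with 3.98. Translation and tRNA charging genes had 17 of 233 (7.30%, 4.6 to 11.4) against 4.16%, with the lysyl-tRNA synthetase gene *ATKRS-1* at 4.65, *AT3G10250* at 4.40 and the initiation factor gene *EIF3C* at 4.0.

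For chaperone, lipid, vesicle traffic, ubiquitin and carbohydrate genes the share given by length lay inside the interval of the measured one. Chaperone genes had 14 of 246 (5.69%) against 4.13%, with *GRV2* at 4.25, *HIP1* at 4.23 and the chaperonin gene *AT5G26360* at 3.34. Lipid genes had 32 of 605 (5.29%) against 4.40%, with *LACS6*, then *LPP3* at 4.45 and *ORP2B* at 4.26. Vesicle traffic genes had 7 of 153 (4.58%) against 4.64%, with *AT4G14160* of the Sec23/Sec24 family at 4.82, the coatomer gene *AT4G34450* at 3.86 and the exocyst gene *EXO84B* at 3.54. Ubiquitin and proteasome genes had 44 of 1206 (3.65%) against 2.81%, with *UBC32* at 4.22, *AT1G02610* at 4.18 and *EMB1135* at 4.15. Carbohydrate and wall enzymes had 14 of 419 (3.34%) against 3.69%, with the sucrose and starch enzymes *SPS1F* at 4.37, *SS4* at 3.94 and *SUS2* at 3.86.

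For kinase, transporter and cytoskeleton genes the share given by length lay above the interval of the measured one, and for pentatricopeptide repeat, transcription factor and chromatin genes inside it. Protein kinase genes had 55 of 1206 (4.56%, 3.52 to 5.89) against 6.47%, with *AT1G67580* at 4.69, *AT5G57610* at 4.58 and *CKL13* at 4.41. Transporter genes had 23 of 683 (3.37%, 2.25 to 5.00) against 5.19%, with *AT5G49990* at 4.42, *AT5G11960* at 4.17 and *PTR1* at 3.89. Cytoskeleton and motor genes had 6 of 241 (2.49%, 1.15 to 5.32) against 6.73%, with the kinesin gene *ZWI* at 3.86, the dynamin gene *DL1* at 3.75 and *AT5G58160* at 3.50. Genes of pentatricopeptide repeat proteins, which process organelle RNA, had 4 of 264 (1.52%, 0.591 to 3.83) against 3.33%, with *AT5G04810* at 3.79, *AT1G22960* at 3.64 and *AT1G64430* at 3.10. Genes whose product name holds transcription factor terms had 23 of 801 (2.87%) against 3.20%, with *GTE8* at 4.21, *LARP1c* at 4.17 and *KTF1* at 4.17. The name alone placed them here, and *KTF1* appears again below among genes of RNA-directed DNA methylation. Chromatin genes as the product names give them had 9 of 152 (5.92%) against 7.64%, with the bromodomain genes *BET9* at 3.78 and *AT5G46550* at 3.68 and the acetyltransferase gene *HAC1* at 3.70.

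**Figure D5:**
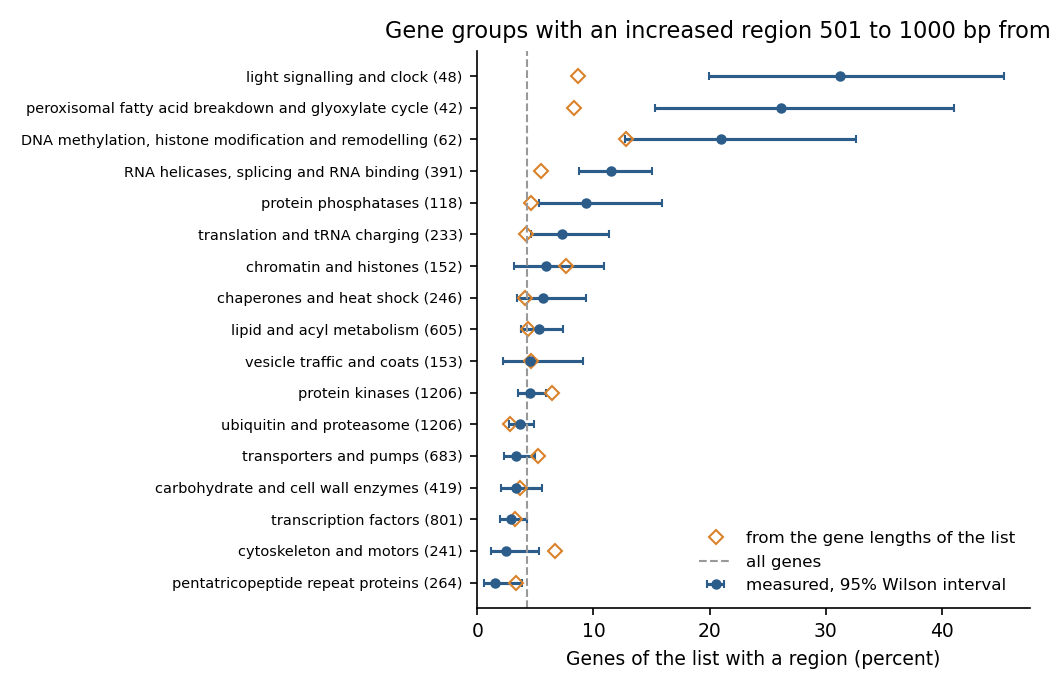
Percent of the genes of each list with an increased region 500 to 1000 bp from a TES, with 95% Wilson intervals (circles), the percent that the gene lengths of the list would give (diamonds) and the 4.30% of all genes (dashed line), with the number of genes in brackets. The 3 lists of named regulators at the top were written with the members known, so their intervals carry no weight as evidence.

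Product names miss many regulators, so 3 lists of gene symbols were added. They were written with the names of the genes that hold a region known, which makes their counts descriptions with no weight as evidence. This also holds where a count is set beside the share from length. Of 48 light signalling and clock genes with sequence in the window, 15 had a region (31.2%, 19.9 to 45.3), against 8.70% from length. They included photoreceptor genes (*PHYA*, *CRY2* at 3.18 for a blue light receptor, *UVR8* at 3.77 for the UV-B receptor) and genes of the COP1/SPA ubiquitin ligase and its partners (*SPA1*, *COP1* at 3.19, *CUL4* at 4.04, *COP8* at 3.19). Clock genes with a region were *TOC1* at 4.69, *PRR3* at 3.63, *GI* at 3.08, *LKP2* at 2.42 and *ZTL* at 2.22. *FYPP3* had 3.16 and *FHY3* 2.58. The *TOC1* region, chr5:24677485-24678420, had its midpoint in coding sequence 598 bp from the TES, and the *COP1* region, chr2:13982137-13983958, in an intron 562 bp from it.

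Of 62 genes for DNA methylation, histone modification and remodelling, 13 had a region (21%, 12.7 to 32.6) against 12.8% from length, just inside the interval. The choice of names set the measured share, so it cannot be weighed against the share from length. After *DRM2* came *SUVH1* at 4.30 and *KTF1*, of RNA-directed DNA methylation, at 4.17. Polycomb genes were *EMF2* at 3.81 and *SWN* at 2.74, acetyltransferase genes *HAC1* at 3.70 and *HAC12* at 3.42, and remodeller genes *PIE1* at 3.3 and *PKL*, which represses embryo traits in seedlings, at 3.21. *JMJ18*, *SUVH9*, *HDA15* and *MOM* had 3.22, 3.21, 2.50 and 2.15. The midpoints in *JMJ18* and *PIE1* were nearest to the TES of another gene and lay 1900 and 1090 bp from their own.

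Of 42 genes for peroxisomes, fatty acid breakdown and the glyoxylate cycle, the route by which seed oil is used on germination, 11 had a region (26.2%, 15.3 to 41.1) against 8.31% from length. Enzyme genes with a region were those of acyl activation (*LACS6*, *LACS7* at 3.98), oxidation (*ACX1* at 3.94), thiolysis (*PKT3* at 2.16) and citrate synthesis (*CSY3* at 4.25, *CSY2* at 3.88). The other genes of the list had no region, so the route was not covered as a whole. Peroxin genes were *PEX6* at 4.07, *PEX5* at 3.91 and *PEX10* at 3.82, and *LON2* and *IBR3* had 3.79 and 3.61.

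A few further genes known for seed biology were picked after their values were seen. *DOG1*, a main determinant of seed dormancy, had 1.33 at chr5:18590195-18590626, and the storage protein genes *CRA1* and *CRU3* had 1.38 and 2.17. These lay below the lower quartile of 2.63, but seed genes were not counted as a set, so no pattern of seed genes follows. *ABA1*, for an enzyme of abscisic acid synthesis, had 3.98, *HAB2*, a phosphatase gene of its signalling, 3.71, and *BRI1*, the brassinosteroid receptor gene, 4.16. *NRPB1*, for the largest subunit of RNA polymerase II, had 3.05.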

How the data were processed

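ATAC-seq libraries came from sorted nuclei of mature Col and *h3.3ko* seeds, 2 per genotype. Per the study's methods and processing notes, the authors trimmed reads with fastp 0.20.1, aligned them with Bowtie2 (TAIR10), discarded chloroplast and mitochondrial reads and removed duplicates with Picard 2.24.0. They called peaks with MACS2 per replicate, kept those in both replicates, merged both genotypes and scored them with deepTools. Regions changed more than 2-fold with an adjusted P below 0.05 were listed. The test behind it and any shift of reads for the transposase are not given in the sources used here. The deposited lists hold positions and the authors' log2 fold change, pooled over both replicates. That column is the only measurement, it chose the regions, and the depth per sample and the spread between replicates are unknown. In total 0 other sample columns were left out.

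Starts were made 1-based, and genes were taken from the RefSeq annotation of TAIR10.1 (27444 protein-coding genes), whose chromosome lengths equal those of TAIR10. Python 3.11.15 with numpy 2.4.6, scipy 1.17.1 and matplotlib 3.10.9 was used. Shares have Wilson intervals and medians order-statistic intervals (95%). The placing rule was checked on simulated regions: 200 of 200 planted inside the window and 0 of 200 planted on each side of it were taken. Genes named by rule were the 10 highest and 5 lowest log2 fold changes, the 3 widest and 3 narrowest regions, and the 3 nearest to each border on both sides. Genes with 2 regions and the 3 highest of each product list were also named by rule. Every gene of the 3 symbol lists that had a region was named too. The last genes known for seed biology followed no rule and were picked after their values were seen. All members and lists were chosen with earlier results of these data known. Some product patterns were corrected after their matches were seen (kinases of small molecules, words containing actin, RING proteins among factors). Of 52, 65 and 42 gene symbols in the 3 added lists, 50, 63 and 42 matched 1 gene. Alternatives changed the gene set, the way distance is measured, the window, the fold limit and the class order.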

Additional observations from a re-analysis of the deposited data

How the results depend on the processing

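Of 90 combinations of a result and an alternative, 68 stayed within the interval of the main value, or within 1.5 times a count, and 22 moved. Most alternatives reused largely the same regions, such as all 894 changed more than 4-fold and 953 of 1033 with only the ends of the gene itself. Staying within the interval was therefore partly set in advance. Measuring distance from the edge of a region moved most results. It took 184 regions, of which 80 were among the 980, with 72.3% coding, 25% intron and 2.72% UTR midpoints, a median width of 586.5 bp, a gene length of 4154 bp, a log2 fold change of 3.28, a GC content of 41.1%, a gene-end region in 19.6% and a convergent neighbour in 44.0%. A window of over 600 and up to 900 bp took 580 regions of 993.5 bp. Over all bases, 56.4% was coding, 26.3% intron and 15.6% UTR. With exon before intron, an order added after seeing the data, introns had 27.1% and UTRs 6.94%. The UTR share was 2.98% with the ends of every transcript and 5.52% with only the ends of the gene itself. Regions wholly inside a gene had a median width of 830 bp and a GC content of 41.1%. Regions changed more than 4-fold had a median log2 fold change of 3.27. The cause was not tested except where the alternative itself removes regions. The share with a decreased TSS stayed between 22.0 and 24.5% in every alternative run for it. No paired analysis was possible because the lists hold no value per library. For the same reason no replicate could be left out, and the intervals hold neither the depth nor the spread between libraries.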
